A study of Mus musculus with 4 samples.

Results

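Myl10, Sdsl and Rab37 are 3 of the 32285 genes counted in single blood stem and progenitor cells from mouse bone marrow. They were chosen from the readout itself, because their levels in the library titled as Mll4 deleted were among the lowest relative to the control library, so the difference between those 2 libraries is given as a description. Nothing is supported with it. The choice did not use the levels in the other 2 mutant libraries, but ratios to control share the control library that it did use. The choice also used the summed levels of the control and Mll4 libraries, so comparisons between their cells are descriptions too. The members were found by name and all 3 were counted in every library.

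Myl10 encodes a myosin regulatory light chain also known as the precursor lymphocyte-specific light chain. Regulatory light chains bind the neck of the myosin heavy chain, and their phosphorylation tunes the contraction of the actin cytoskeleton. Sdsl encodes a serine dehydratase-like enzyme, a relative of the liver enzyme that removes the amino group of serine and threonine. Rab37 encodes a small GTPase of the Rab family that sits on secretory vesicles and was described in mast cells. MLL3 and MLL4, the products of Kmt2c and Kmt2d, are histone methyltransferases that place the monomethyl mark on lysine 4 of histone H3 at enhancers.

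On GRCm38, Myl10 (ENSMUSG00000005474) lies on the plus strand of chromosome 5 from 136693146 to 136701094. Sdsl (ENSMUSG00000029596) lies on the minus strand of chromosome 5 from 120458186 to 120472810. Rab37 (ENSMUSG00000020732) lies on the plus strand of chromosome 11 from 115091431 to 115162236. Cd300lf lies inside the body of Rab37 on the opposite strand, and its own level was at most 2.45 UMIs per 1000000 UMIs of a library, the unit called CPM below.

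The start of Myl10 is shown because Myl10 is the member with a promoter sequence in the table used, and the promoter is where factors that switch a gene on close to its start can bind. The window chr5:136692896-136693195 (plus strand, GRCm38.p6, RefSeq) runs from 250 bases before to 50 bases after the start. Capitals mark the letters of an ETS motif, read here on the opposite strand, and of a GATA motif, also read on the opposite strand.
Myl10 promoter: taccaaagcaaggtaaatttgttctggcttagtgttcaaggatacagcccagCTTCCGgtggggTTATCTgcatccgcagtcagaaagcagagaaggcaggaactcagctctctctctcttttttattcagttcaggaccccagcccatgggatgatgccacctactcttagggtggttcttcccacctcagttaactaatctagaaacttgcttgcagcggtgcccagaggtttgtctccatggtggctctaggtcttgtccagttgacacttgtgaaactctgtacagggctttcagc
Myl10 had entries at 3 start sites. Motifs were searched on both strands by their letters, and the ETS and GATA matches do not overlap. ETS letters (AGGAAG or CGGAAG) were in 46.5% of 32851 promoter windows of this length and GATA letters (AGATAA or TGATAA) in 18.6%. RUNX (TGTGGT, in 16.8% of windows), MEIS (TGACAG, 19.2%), CEBP (TTGCNNAA, 10.8%), TATA box (letters TATAAA, 13.6%) and SP/KLF (GGGCGG, 35.7%) letters were not in this window. The window at the second start held 3 ETS matches, of which the first 2 share letters, and 1 SP/KLF match, and the window at the third start held none of the 7. Such letters describe the sequence and were not tested as binding sites.

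The cells were CD45.2+ and Lin-Sca1+Kit+ (LSK), a bone marrow fraction that holds blood stem cells and multipotent progenitors, taken 10 weeks after transplantation. There was 1 library for each of 4 genotypes, titled control, Mll3 deleted, Mll4 deleted and Mll3/4 deleted. The labels give neither the allele, the driver of deletion, the strain, nor the number of mice in a library. RNA was counted as unique molecular identifiers (UMIs), and tags on 6 antibodies, among them CD150, CD48, CD201, CD135 and CD117, were counted in the same cells. CD150 marks long-term stem cells and CD48 marks progenitors that have left that state.

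Each genotype was sequenced once, so the spread between replicates is unknown and nothing was tested. Intervals are at 95% and cover counting error only, and a difference outside them still compares 2 libraries rather than 2 genotypes. Kept cells numbered 7274 (control), 6101 (Mll3), 4793 (Mll4) and 4748 (Mll3/4), with 50792614 to 120700343 UMIs a library and median UMIs per cell of 14454, 15381, 21400 and 8920. The Mll4 library kept 62.2% of its barcodes and the others 92.4% to 94.7%. Pairs of libraries shared 7 to 14 kept barcodes. Kmt2c, the gene of MLL3, was at 68.9 CPM in the control, 35.3 in the Mll3, 61.3 in the Mll4 and 42.3 in the Mll3/4 library. Kmt2d, the gene of MLL4, was at 24.6 in the control, 22.6 in the Mll4 and 25.4 in the Mll3/4 library, so these 3-prime counts do not check the Mll4 deletion and the libraries are called by their labels. The sort markers Kit and Ly6a were counted in all 4 libraries, at 93.4 CPM or more. In the Mll4-labelled library 66.0% of the cells fell into clusters with markers of mast cells, macrophages, granulocyte-monocyte cells, T or innate lymphoid cells or plasma cells, against 1.87% in the control. Of the 4748 Mll3/4-labelled cells, 4719 fell into B lineage-like clusters.

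Myl10 was the most abundant of the 3 genes in every library. In control, Mll3-, Mll4- and Mll3/4-labelled cells its level was 298, 166, 61.9 and 2.28 CPM. The intervals were 295 to 301, 164 to 168, 60.5 to 63.4 and 1.89 to 2.74 in the same order. These do not overlap, and each library lay below the one before. Relative to control the log2 ratios were -0.84, -2.26 and -7.02. UMIs are counted at the end of a transcript, so levels of different genes were compared without a correction for length.

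Sdsl, the serine dehydratase-like gene, separated the single mutants. It stood at 94.4 CPM in the control (92.7 to 96.2) and at 96.4 (94.5 to 98.3) in the Mll3-labelled library. With the Mll4 label it was 19.8 (19.0 to 20.6), and with the Mll3/4 label 1.12 (0.850 to 1.45). The control and Mll3-labelled intervals overlap, and the log2 ratio of 0.03 had an interval from -0.01 to 0.07. Its sign depended on the scaling, since it was -0.07 with both TMM and median-of-ratios scaling, and with antibody groups weighted to the control's shares it was -0.29. The log2 ratios of the Mll4- and Mll3/4-labelled cells were -2.25 and -6.38.

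Rab37, the vesicle GTPase, was at 53.2 CPM in the control (51.9 to 54.5), 45.3 with the Mll3 label (44.0 to 46.6) and 13.3 with the Mll4 label (12.7 to 14.0). The Mll3/4-labelled library held 18 Rab37 UMIs in all, a level of 0.354 (0.210 to 0.560). The log2 ratios to control were -0.23, -1.99 and -7.19.

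At least 2-fold lower levels were found for 0 of the 3 genes in the Mll3-labelled library, where 0.459% of 6322 genes with at least 20 CPM in 1 of the 2 libraries were that low. For the Mll4-labelled cells the choice of the genes fixes the count at 3 of 3, the share of all genes was 3.82%, and nothing is read from it. For the Mll3/4-labelled cells 3 of 3 were at least 2-fold lower, beside 10.9% of 6683 genes. At least 2-fold higher, which none of the 3 was, were 0.838%, 6.88% and 9.23% of genes in the 3 comparisons. The median log2 ratio of the 3 genes was -0.23, -2.25 and -7.02 in these libraries, beside medians over all genes of 0.11, -0.12 and -0.09. The 3 mutant libraries were set against the same control cells, so the ratios share it.

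Within a list of 3149 ranked genes with at least 50 CPM, Myl10, Sdsl and Rab37 had ranks 3, 4 and 5 from the lowest ratio in the Mll4-labelled library. Ratios of genes left out of the ranked list are not given, so the ranks hold within that list only. Among the ranked genes, Tpm3-rs7 (log2 -4.62) and Tspan32 (-3.40) were lower. Just outside were Pglyrp2 at -1.96, Klk8 at -1.91 and Ptprcap at -1.90, close to Rab37 at -1.99. In the Mll3-labelled library, whose own levels the choice did not use, Myl10 was 23 of 3083 ranked genes from the lowest, Rab37 344 and Sdsl 1037. Among Mll3/4-labelled cells Rab37 was 6 of 3246 ranked genes, Myl10 10 and Sdsl 23.

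**Figure D1:**
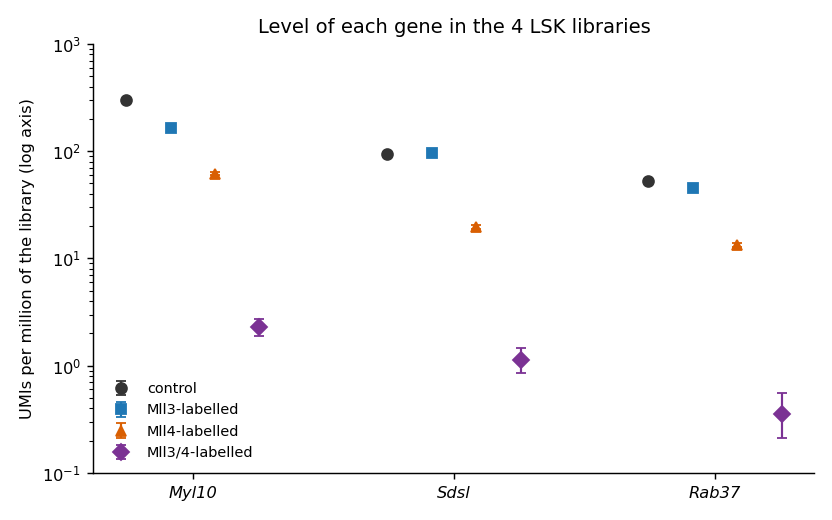
Level of Myl10, Sdsl and Rab37 in each of the 4 libraries, as CPM on a log axis. Points are the summed level of 1 library and bars the exact Poisson interval. Myl10 steps down from 298 to 166, 61.9 and 2.28, while the control and Mll3-labelled points of Sdsl lie side by side at 94.4 and 96.4.

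The libraries differ in their mix of cells, so levels were next compared within groups set by the CD150 and CD48 antibodies. CD150+CD48- cells, the surface type of stem cells, numbered 1849, 2922, 382 and 1907 in control, Mll3-, Mll4- and Mll3/4-labelled cells, an order kept below. In these cells Myl10 was at 419, 169, 116 and 1.32 CPM. The Mll3-labelled level was 2.48-fold lower than control (log2 -1.31, interval -1.35 to -1.27), a larger difference than over the whole library. The Mll4-labelled level was 3.62-fold lower (log2 -1.85, -1.94 to -1.77), a smaller one. CD150-CD48- cells, the surface type of the progenitors next to stem cells, held the highest control level, 539. Their mutant levels were 211 (Mll3), 217 (Mll4) and 1.05 (Mll3/4). The Mll3- and Mll4-labelled intervals, 204 to 218 and 208 to 227, overlap. In CD150+CD48+ cells Myl10 was at 142, 91.6, 55.5 and 11.2. In CD150-CD48+ cells it was at 227, 151, 41.7 and 4.97. The order control, Mll3, Mll4, Mll3/4 held in 3 of the 4 groups. In CD150-CD48- cells the order of the single mutants depended on the processing: it was 221 (Mll3) and 196 (Mll4) without centring of the antibody counts, and 223 and 199 with thresholds fitted in each library. It was 212 and 237 without clusters of other cell types and granulocyte-monocyte-like cells.

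Sdsl in CD150+CD48- cells was at 134 CPM in the control and at 125, 48.6 and 0.900 in the mutants. The Mll3-labelled ratio was slight (log2 -0.09, -0.15 to -0.03) and the Mll4-labelled one -1.46 (-1.60 to -1.32). CD150-CD48- cells gave 118, 107, 32.1 and 0.150, the last from 3 UMIs, with a log2 ratio to control of -9.40 (-11.90 to -8.07). CD150+CD48+ cells had 130, 98.7, 61.2 and 13.5, the last from 24 UMIs. CD150-CD48+ cells had 73.1, 49.4, 13.1 and 1.29. The Mll3-labelled library was therefore below control by 0.56 on the log2 scale in CD150-CD48+ cells (-0.64 to -0.48), although the whole-library levels were alike. With the CD48 and CD150 thresholds fitted in each library that ratio was -0.34. More CD150+CD48- cells, where Sdsl is high, were in the Mll3-labelled library (2922 of 6101) than in the control (1849 of 7274). The part of these shares in the whole-library levels was not tested.

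Rab37 in CD150+CD48- cells was at 65.8 CPM in the control and at 54.2, 17.2 and 0.265 in the mutants, the last from 5 UMIs. CD150-CD48- cells had 58.8, 46.1, 14.9 and 0.150, the last from 3 UMIs. CD150+CD48+ cells had 69.1, 54.8, 29.2 and 2.25, and CD150-CD48+ cells had 46.2, 30.7, 11.8 and 0.597. Rab37 was the flattest of the 3 genes across the control groups. Its highest and second highest control levels, in CD150+CD48+ and CD150+CD48- cells, have overlapping intervals, as do those of Sdsl in the same groups. Myl10 in the control differed between CD150+CD48- and CD150+CD48+ cells by 2.95-fold.

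With the Mll4 label 3 of 3 genes were at least 2-fold lower than control in each of the 4 groups, where 1.96%, 2.7%, 1.35% and 4.77% of all genes were. The choice of the genes used this contrast, and nothing is read from those counts. With the Mll3 label Myl10 alone was at least 2-fold lower, in CD150+CD48- (0.758% of all genes) and in CD150-CD48- cells (0.662%), and none was in the CD48+ groups (0.874% and 0.454%). With the Mll3/4 label all 3 were in each group, beside 11.9%, 12.9%, 10.4% and 10.6% of all genes. The groups of that library are uncertain, and 1901 of its 1907 CD150+CD48- cells were B lineage-like. Without centring of the antibody counts 210 rather than 1907 of its cells were CD150+CD48-, and Myl10, Sdsl and Rab37 there were at 8.21, 4.51 and 1.64 CPM.

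**Figure D2:**
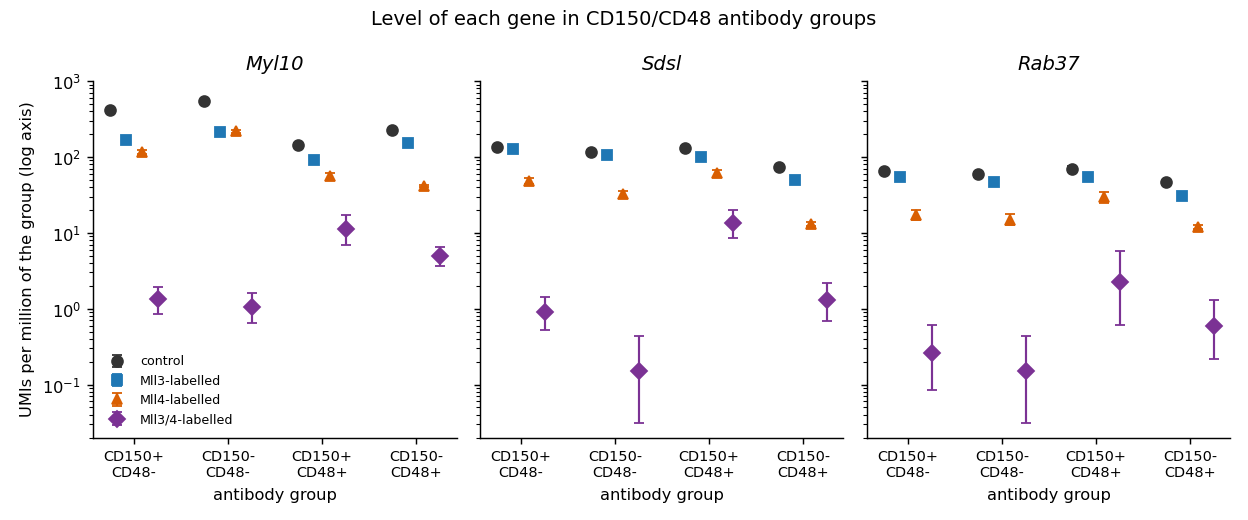
Level of each gene within 4 groups of cells set by CD150 and CD48 antibody signal, as CPM on a log axis, with exact Poisson intervals and 1 point per library. In CD150+CD48- cells Myl10 runs 419, 169, 116 and 1.32, and in CD150-CD48- cells the Mll3- and Mll4-labelled points lie together at 211 and 217.

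Cells of other types were numerous in the Mll4-labelled library, and the 3 genes were low in most of them. Granulocyte-monocyte-like cells of this library (1060 cells) had 7.58 CPM of Myl10, 3.74 of Sdsl and 1.91 of Rab37. Monocyte/macrophage-like cells (985) had 11.5, 5.14 and 6.44. Rab37 went against this in mast/basophil-like cells (624), where it stood at 61.1 (54.1 to 68.7), above its whole-library control level, beside 35.3 for Myl10 and 20.9 for Sdsl. T/innate lymphoid-like cells of cluster 5 (353) also had more Rab37 (40.2) than Myl10 (30.7) or Sdsl (4.43). The mast/basophil-like cells were 13.0% of the library's cells and held 17.1% of its Rab37 UMIs. All 8 granulocyte-monocyte, 8 monocyte/macrophage and 8 mast/basophil markers had UMIs in this library, with summed levels of 10860, 610 and 1703 CPM against 1167, 13.6 and 108 in the control.

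Leaving those clusters out of every library, a comparison chosen after the data had been seen, left 372 CD150+CD48- cells of the Mll4-labelled library. Their levels were 118 (Myl10), 49.3 (Sdsl) and 17.4 (Rab37) CPM, and the log2 ratios to control were -1.82, -1.44 and -1.92, close to -1.85, -1.46 and -1.93 with all cells. CD150-CD48- cells gave -1.19, -1.81 and -1.97. The ratios were smaller in CD150+CD48+ cells (-1.15, -0.65 and -0.78) and in CD150-CD48+ cells (-0.80, -0.97 and -1.02). Over the whole library they came to -1.08, -1.15 and -1.30, less than with all cells.

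The share of cells with a UMI was compared after each cell was thinned to 3000 UMIs, which left out 14, 17, 134 and 33 cells (control, Mll3, Mll4, Mll3/4). Myl10 was found in 49.6%, 31.7%, 12.1% and 0.318% of thinned cells in the order control, Mll3, Mll4, Mll3/4. Before thinning these were 84.1%, 67.1%, 29.96% and 0.569%. Sdsl was found in 24.6%, 25.0%, 4.68% and 0.106% of thinned cells, and in 66.2%, 64.4%, 22.0% and 0.379% of unthinned cells. Rab37 was found in 15.2%, 12.5%, 5.26% and 0.0424%, and before thinning in 53.4%, 48.1%, 22.1% and 0.274%. Among thinned cells with a UMI, the mean number of Myl10 UMIs was 2.12 in the control, 1.78 in the Mll3-labelled and 1.47 in the Mll4-labelled library. A mean over cells with at least 1 UMI tends to fall with the share of such cells, so it is not a separate measure.

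Within CD150+CD48- cells thinned in the same way, Myl10 was found in 59.7% of control (57.5 to 62.0), 33.1% of Mll3-labelled (31.3 to 34.8) and 24.1% of Mll4-labelled cells (19.9 to 28.8). Sdsl was found in 30.6%, 31.9% and 12.5%, and Rab37 in 17.8%, 14.2% and 3.98%. Unthinned shares of the 3 genes were 87.5%, 76.8% and 55.0% in the control, 68.8%, 78.4% and 54.2% in the Mll3-labelled and 63.1%, 57.1% and 27.0% in the Mll4-labelled library. Median depths of the group were 11750, 14661 and 24741 UMIs, so the deepest cells had the lowest thinned shares. Monocyte/macrophage-like cells of the Mll4-labelled library, with a median of 9488 UMIs, were taken as a reference with low levels of these genes. Whether they express the genes at a low level was not tested. They gave thinned shares of 1.56% for Myl10, 0.625% for Sdsl and 1.04% for Rab37. The Mll3/4-labelled shares lie below those of these cells, which are of another library, and most of the UMIs behind them came from 30 cells described further on. The Mll4-labelled shares in CD150+CD48- cells lie above them for all 3 genes.

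Clusters of cells, built without the 3 genes, gave a finer view. In the control, Myl10 was highest in HSC-like cells (952 cells, 687 CPM, 671 to 704), the cluster with 10 of 12 stem cell markers raised. Lymphoid-primed-like cells (343) followed at 418 (401 to 436), a 1.64-fold lower level. Sdsl split these clusters more widely, with 125 in HSC-like and 10.5 (7.94 to 13.7) in lymphoid-primed-like cells, 11.8-fold lower (interval 9.09 to 15.8). Rab37 was at 64.8 in HSC-like and 28.7 in lymphoid-primed-like cells, 2.25-fold lower (1.89 to 2.71). Among the 7 clusters with at least 50 control cells, Myl10 was thus second highest and Sdsl lowest in lymphoid-primed-like cells.

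The Mll3-labelled library shared most clusters with the control, and Myl10 did not differ alike in all of them. HSC-like cells had 278 CPM (1947 cells) against 687, a log2 ratio of -1.31 (-1.36 to -1.26). Lymphoid-primed-like cells had 432 (232 cells) against 418, a ratio of 0.05 (-0.05 to 0.15). Within the Mll3-labelled library the order of the 2 clusters was the reverse of the control's, with lymphoid-primed-like cells 0.64 higher on the log2 scale (0.55 to 0.72) where in the control they were 0.72 lower. With a finer clustering, of resolution 1.0, the lymphoid-primed-like ratio was -0.25 (-0.33 to -0.17) and the HSC-like ratio -1.25. Cluster 0 (unnamed), which held 2901 control and 855 Mll3-labelled cells, gave 385 and 182. Cluster 3, led by Pf4 and S-phase genes, gave 220 and 97.8. Cluster 8, led by histone genes, gave 175 and 99.8, and cluster 7, led by Ccnb2 and other mitotic genes, gave 196 and 107. The difference between clusters was not tested.

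Sdsl in the Mll3-labelled library stayed near control in the same clusters, at 131 against 125 in HSC-like, 8.48 against 10.5 in lymphoid-primed-like and 132 against 118 in cluster 3. Its log2 ratios ran from -0.30 in lymphoid-primed-like cells (-1.03 to 0.38) to 0.17 in cluster 3 (0.08 to 0.26). Rab37 was lower in HSC-like (51.4 against 64.8) and lymphoid-primed-like cells (17.6 against 28.7), with ratios of -0.34 and -0.70. Myl10 was the 1 member at least 2-fold lower with the Mll3 label in HSC-like cells (0.776% of all genes), cluster 0 (0.384%) and cluster 3 (0.728%). No member was in lymphoid-primed-like cells (0.472%) or in clusters 7, 8 and 9 (0.759%, 0.445% and 0.67%).

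The Mll4-labelled library shared 1 cluster of at least 50 cells with the control, cluster 7. There, in 67 cells against 389, Myl10 was at 124 against 196 (log2 -0.66), Sdsl at 57.0 against 95.7 (-0.74) and Rab37 at 28.5 against 64.0 (-1.16). Rab37 was thus the 1 gene of the 3 at least 2-fold lower, where 1.15% of all genes were. Most of the library's other Myl10 UMIs lay in clusters 4 and 17. Cluster 4 (1019 cells, led by Slc16a11) held 59.1% of the library's Myl10 UMIs. It was unnamed, with 2 of 12 stem cell markers raised and 1 of the 12, Mecom, among its top genes. Its levels were 180 CPM of Myl10, 48.7 of Sdsl and 20.2 of Rab37. Cluster 17 (408 cells, led by histone genes) held 23.5% and was at 107, 37.7 and 25.7. The control had 1 cell in each of these clusters, so no ratio within them can be given. T/innate lymphoid-like cells, pooled over clusters 5 and 6, numbered 362 with the Mll4 label and 61 in the control. There Rab37 was at 39.8 against 49.9 (log2 -0.35, -0.92 to 0.31). Myl10 was at 31.4 against 380 (-3.59) and Sdsl at 4.35 against 18.9 (-2.13). Their mix was unlike, with 353 and 9 Mll4-labelled cells in clusters 5 and 6 beside 47 and 14 control cells.

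**Figure D3:**
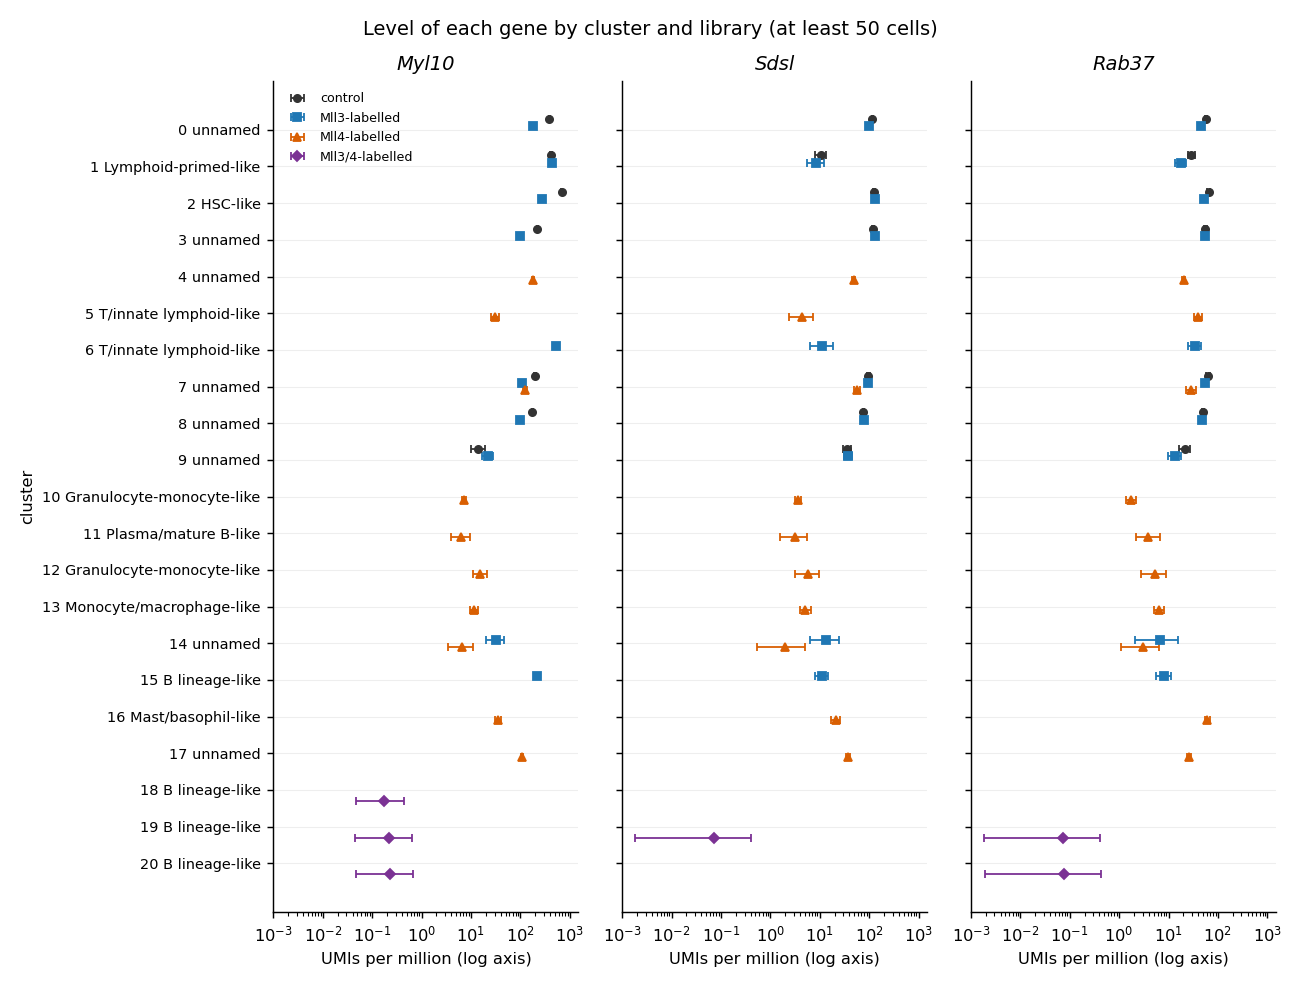
Level of each gene in every cluster and library with at least 50 cells, as CPM on a log axis with exact Poisson intervals. Levels of 0 are not drawn, which leaves out Sdsl in clusters 18 and 20 and Rab37 in cluster 18. Control and Mll3-labelled Myl10 points are apart in HSC-like cells (687 and 278) and together in lymphoid-primed-like cells (418 and 432), and Mll3/4-labelled cells lie far to the left.

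The Mll3/4-labelled library allowed a comparison within B lineage-like cells, the precursors that have turned on genes such as Cd79a, Ebf1 and Pax5. B lineage-like cells of the Mll3-labelled library (157 cells, all in cluster 15) had 214 CPM of Myl10 (200 to 228), 11.1 of Sdsl and 8.13 of Rab37. The 4718 Mll3/4-labelled cells of clusters 18, 19 and 20 had 10 Myl10 UMIs in all, a level of 0.2001 CPM, which was 1017-fold lower (577 to 2233). They held 1 Sdsl UMI (373-fold lower, 94.5 to 22360) and 2 Rab37 UMIs (165-fold lower, 51.9 to 1747). Of all genes 12.6% were at least 2-fold lower in this comparison. The 2 libraries hold their B lineage-like cells in different clusters, so cell state and genotype cannot be told apart here.

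The other 30 cells of the Mll3/4-labelled library, 0.632% of it, held 106 of its 116 Myl10, 56 of its 57 Sdsl and 16 of its 18 Rab37 UMIs. A member's UMI was found in 22 of these 30 cells, against 12 of the 4718. Their levels were 128 (Myl10), 67.8 (Sdsl) and 19.4 (Rab37) CPM, below control by 2.31-fold (1.92 to 2.83), 1.38-fold (1.07 to 1.84) and 2.66-fold (1.69 to 4.80). Most lay in clusters of control and Mll3-labelled cells, with 9 in cluster 3, 4 in cluster 8 and 1 HSC-like cell with 16 Myl10 UMIs. A single cell in cluster 15 held 21 Myl10 UMIs. None of their barcodes was also kept in another library, and their median depth was 27417 UMIs beside 8900 for the rest. The part of that depth in their UMIs was not tested, and the whole-library Myl10 ratio was -6.94 after the cells with the highest doublet scores were removed. The whole-library levels of 2.28, 1.12 and 0.354 therefore rest on these cells, as do most Mll3/4-labelled levels given for antibody groups, and without them they were 0.2001, 0.02001 and 0.04003, the last values from 1 and 2 UMIs.

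Without thresholds, cells of each library were divided into 5 equal parts by the signal of each antibody. CD201, the endothelial protein C receptor that marks stem cells, was compared first. In the control Myl10 was at 158, 202, 274, 376 and 646 CPM from the lowest to the highest CD201 part. The Mll3-labelled library gave 104, 122, 153, 191 and 318, and the Mll4-labelled library 33.8, 53.1, 65.7, 71.4 and 110. In all 3 libraries each part was higher than the one before, at lower levels in the mutants. Sdsl ran from 80.7 to 108 with CD201 in the control and Rab37 from 49.7 to 57.8, both over a narrower range. Among Mll4-labelled cells Rab37 ran the other way, from 16.9 to 9.80. Sdsl there was at 20.9 in the lowest and 17.4 in the highest part, with overlapping intervals (19.2 to 22.7 and 15.4 to 19.5).

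In the control all 3 genes were lower at high CD48. There, Myl10 was at 522 in the lowest and 171 in the highest CD48 part, Sdsl at 127 and 55.4, and Rab37 at 64.3 and 40.2. Mll3-labelled Myl10 was at 193, 196, 163, 119 and 167 from the lowest to the highest part, so it did not follow a single direction. Mll4-labelled Myl10 ran from 156 to 23.0. Mll3/4-labelled cells had the other order, with 0.442 in the lowest and 6.61 in the highest part for Myl10 and 0.664 and 3.49 for Sdsl. These levels came from 4 and 70 Myl10 UMIs and from 6 and 37 Sdsl UMIs. The 30 cells described above held 106 Myl10 and 56 Sdsl UMIs, against 10 and 1 in the rest of that library. That order therefore rests mostly on those 30 cells. For CD117, the Kit protein, the genes parted: control Myl10 was at 355 in the lowest and 245 in the highest part, while Sdsl was at 47.6 and 126 and Rab37 at 38.0 and 63.4. CD135, the Flt3 receptor of lymphoid-primed progenitors, separated Sdsl (111 in the lowest and 51.1 in the highest control part) from Myl10 (292 and 315). Antibody values are centred on the 6 antibodies of a cell, so the signals are not independent of each other.

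**Figure D4:**
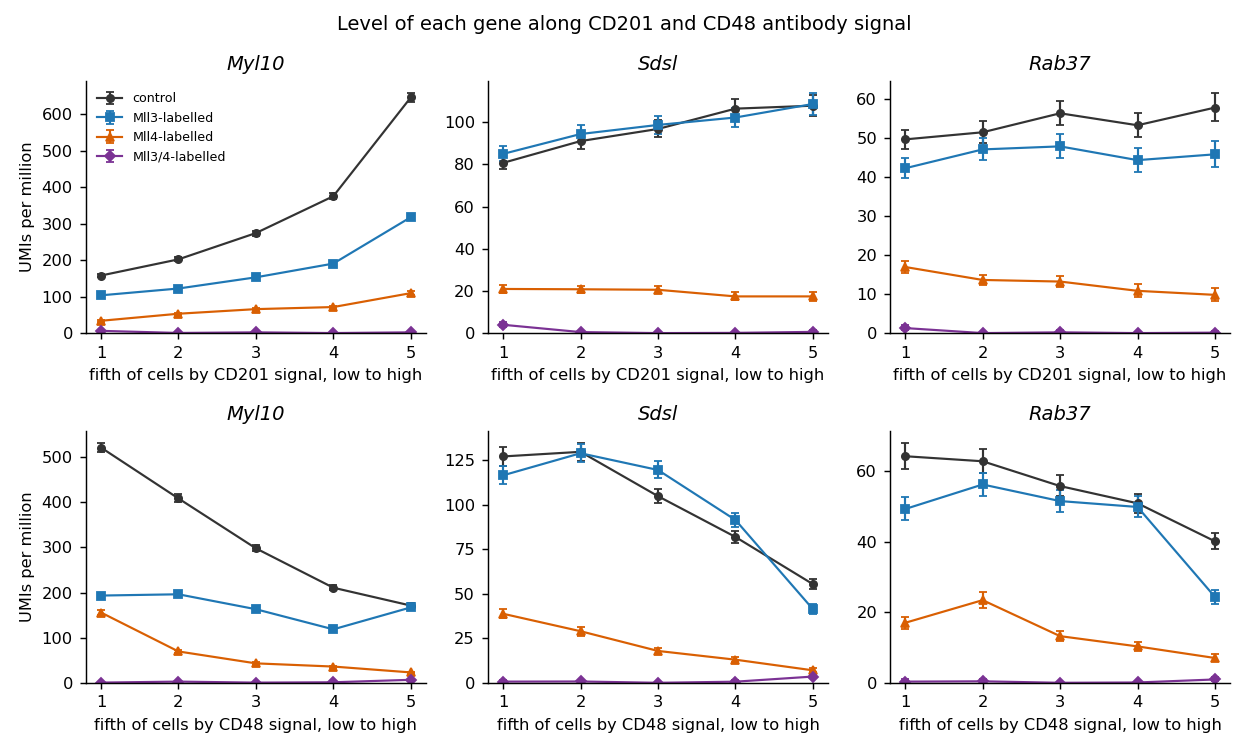
Level of each gene in 5 equal parts of a library's cells ordered by CD201 (upper row) or CD48 signal (lower row), as CPM with exact Poisson intervals and 1 line per library. Control Myl10 runs from 158 to 646 with CD201 and from 522 to 171 with CD48, and the Mll3-labelled Myl10 line runs from 193 to 119 in the part next to the highest and is at 167 in the highest CD48 part.

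Cells with no UMI of a list of 16 mitotic genes, after thinning, were compared with the others. They had more Myl10 in the control, Mll3- and Mll4-labelled libraries. The control levels were 428 in 3391 such cells and 226 in 3869 cells with at least 1. The Mll3-labelled library gave 231 and 131, and the Mll4-labelled library 73.9 and 57.8. Sdsl in the control was at 111 and 85.4 and Rab37 at 57.3 and 50.9. Among Mll4-labelled cells Sdsl had the other order, at 16.9 and 20.9. So did Myl10 in the Mll3/4-labelled library, at 1.51 (35 UMIs) and 2.94 (81 UMIs), and Sdsl there, at 0.56 and 1.60. Most of these UMIs came from the 30 cells described above.

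Over all control cells the 3 genes were found in the same cells about as often as their separate shares give. Among 7260 thinned cells, 907 had both Myl10 and Sdsl, where the product of the shares is 885. For Myl10 with Rab37 the numbers were 549 and 547, and for Sdsl with Rab37 301 and 271. Within control groups Myl10 with Sdsl had 345 against 338 (CD150+CD48-), 220 against 228 (CD150-CD48-), 42 against 32.1 (CD150+CD48+) and 300 against 316 (CD150-CD48+). Mll3-labelled cells gave 464 against 482 for Myl10 with Sdsl, 242 against 240 for Myl10 with Rab37 and 212 against 189 for Sdsl with Rab37. In their CD150-CD48+ cells these were 39 against 59.6, 26 against 37.5 and 26 against 17.8. Among all Mll4-labelled cells there were 60 against 26.3 for Myl10 with Sdsl, 27 against 11.5 for Sdsl with Rab37 and 32 against 29.6 for Myl10 with Rab37. That library mixes cells with and without these genes, and the part of this mix in the numbers was not tested. Within its CD150+CD48- cells the same 3 pairs, in that order, had 17 against 11.3, 4 against 1.87 and 9 against 3.62. In CD150-CD48- cells they had 11 against 13.6, 1 against 1.82 and 10 against 9.32. The CD150+CD48+ cells gave 7 against 5.16, 5 against 2.38 and 2 against 2.14. In CD150-CD48+ cells, 3749 of the 4659 thinned cells, they had 25 against 8.2, 17 against 5.75 and 11 against 14.7.

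Other genes of the same families were compared with the shares of all genes past 2-fold, which were 3.82% lower and 6.88% higher with the Mll4 label and 10.9% and 9.23% with the Mll3/4 label. Of the myosin list (light and heavy chains and their kinases and phosphatases), 8 genes other than Myl10 had at least 20 CPM in the control or Mll4-labelled library, and 0 of the 8 were 2-fold lower or higher there. Their log2 ratios ran from -0.38 for Myl12b, the regulatory light chain of non-muscle cells, to 0.06 for the non-muscle heavy chain Myh9, with a median of -0.06. With the Mll3/4 label Myl12b was at -1.26 and the heavy chain Myh10 at 2.36, the 2 of 9 past 2-fold.

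Of the serine and threonine list 0 of 9 genes passed 2-fold in either direction in the Mll4-labelled library, with a median of -0.05. Phgdh, the first enzyme of serine synthesis, was at -0.67, and Psph, the last, at -0.59. Shmt2, the mitochondrial enzyme that turns serine into glycine, was at 0.60, and the amino acid carrier Slc38a2 at 0.99. Sds, the closest relative of Sdsl, had 2 UMIs in the control. With the Mll3/4 label 1 of 9 passed, the neutral amino acid carrier Slc1a5 at 2.43.

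Of the list of secretory Rab proteins and their effectors 9 genes were measured at that level in the Mll4-labelled library, with a median of -0.04. Unc13d, a vesicle priming factor that binds Rab27, was the 1 gene at least 2-fold lower, at -1.18 (43.0 to 19.0 CPM). Rab27b was the 1 at least 2-fold higher, at 1.03 (13.0 to 26.5). Rab26, the closest relative of Rab37, was at 1.33 in the control and 1.17 in the Mll4-labelled library. Sytl1, an effector of Rab27, was under the minimum and was singled out after its values had been seen: it ran 15.2, 11.5, 3.70 and 0.630 in the order control, Mll3, Mll4, Mll3/4. With the Mll3/4 label Unc13d (-2.44) and Rab27a (-1.25) were the 2 of 9 lower and Rab3a (3.20) the 1 higher. With the Mll3 label none of the 8, 9 and 8 relatives measured in the 3 lists passed 2-fold.

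Genes within 250 kb of each member were compared to see whether a whole region differed. Of those with at least 5 CPM, 0 of 3 near Myl10, 0 of 5 near Sdsl and 0 of 10 near Rab37 were 2-fold lower in the Mll4-labelled library. Of all genes with at least 5 CPM 5.15% were, so few or none would be looked for among so few neighbours, and nothing is read from these counts. Near Myl10, the transcription factor Cux1 was at -0.45 and the ciliary gene Ift22 at 0.05. Near Sdsl, Plbd2 (10.5 kb away) was at 0.27 and the exchanger Slc8b1 was the 1 gene at least 2-fold higher, at 1.39. Near Rab37, the scaffold gene Slc9a3r1 (1.1 kb away) was at -0.87. The 5 genes at least 2-fold higher there were the receptor genes Cd300a (1.33), Cd300lb (3.36), Cd300ld (6.39), Cd300c2 (4.27) and Cd300e (0.0754 to 20.4 CPM). The last is among the leading genes of the monocyte/macrophage-like cluster, which held 985 cells in this library and 18 in the control, and the part of those cells in the neighbours' levels was not tested. With the Mll3/4 label 1 of 3 near Myl10, 0 of 4 near Sdsl and 3 of 5 near Rab37 were at least 2-fold lower. Of all genes with at least 5 CPM 13.7% were. The 3 near Rab37 were Cd300a at -5.85, Slc9a3r1 at -1.34 and Fdxr at -1.05.

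Genes with the most similar levels were sought over 16 sums, the 4 antibody groups of each library, among 7261 genes by Pearson correlation of log2 levels after adding 1. The sums share libraries, and most of their spread lies between the Mll3/4-labelled library and the rest, so the values are descriptive. Closest to Myl10 were Akr1c13 (r 0.98), Saraf, Ctla2a, Card19 and Crlf3 (0.97 each). Closest to Sdsl were 5033406O09Rik (1.0), Vamp5 (0.99), Tfr2 (0.99), Tmem106c and Unc13d (0.98 each). Among those closest to Rab37 were Cpne2, G430095P16Rik, Vamp8 and Stat5a (0.99 each). Vamp5 and Vamp8 are vesicle fusion proteins, Tfr2 is the second transferrin receptor and Stat5a a cytokine-activated transcription factor.

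Leaving out the Mll3/4-labelled library, chosen after the data had been seen, changed these neighbours. Over 12 sums Myl10 was closest to Cep19 (0.95), Retreg1 (0.95), Sft2d2, Emcn and Cyld. The correlation of Myl10 with Sdsl went from 0.94 to 0.60 and with Rab37 from 0.94 to 0.55, while that of Sdsl with Rab37 went from 0.98 to 0.94. Of these 12 sums 4 are of the Mll4-labelled library, whose low levels chose the genes, so nothing is read from the correlations.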

How the data were processed

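The authors deposited raw UMI counts per gene and antibody counts per cell barcode, 1 sparse matrix for each of 4 libraries. Per the file headers and the submitters' processing notes they were made with Cell Ranger 6.1.1 on mm10. The filter that chose the barcodes, the strand setting and the annotation are not given in the sources used here. Libraries were grouped by their titles.

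Cells were kept if they had 1000 detected genes or more and no more than 10% of UMIs from mitochondrial genes. No doublets were removed, and Scrublet (scanpy 1.11.5) called 1, 1, 169 and 0 cells, so its calls were not used; an alternative removed the highest doublet scores. UMIs were summed per library, group or cluster and scaled to a total of 1000000 (CPM; Python 3.11.15, scipy 1.17.1). Ratios are log2 after adding 0.5 UMIs. Intervals are exact Poisson for levels, exact conditional binomial for ratios and Clopper-Pearson for shares. They cover counting error only. The interval code was tested on simulated data.

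Antibody counts were turned into centred log ratios (natural log) over 6 antibodies, with 1 Gaussian-mixture threshold each for CD150 and CD48. Groups needed 100 cells and clusters 50. Clustering used 2000 variable genes without the 3 members, 30 principal components, 15 neighbours, Leiden resolution 0.6 and no batch correction. A cluster was named from fixed markers when at least 3, and most of the list, were raised 2-fold. A name was withheld where another list tied, or had more of its genes among the 10 leading genes of the cluster. Clusters and their names are from these libraries and could differ from the study's.

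Gene positions are from GENCODE M21, in which 32235 of 32285 identifiers (99.8%) were found, and the promoter from RefSeq. Named genes were the members, the next in rank, the 5 genes most like each member, listed relatives with at least 20 CPM, and neighbours with at least 5. One gene under this rule is not reported here. The members and lists were chosen with earlier results of these data known. Alternatives were other scalings, cell filters, doublet removal, weights, antibody scales, thinning depths and cluster settings.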

Additional observations from a re-analysis of the deposited data

Results flagged for a closer look

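Myl10 in the Mll3-labelled library lay on opposite sides of control in different clusters. In cluster 9, led by stromal genes such as Cxcl12 and with 6 of 8 granulocyte-monocyte markers raised, it was higher by 0.64 on the log2 scale (interval 0.06 to 1.25), from 67 UMIs in 113 cells against 40 UMIs in 110 cells. In HSC-like cells, its lowest cluster, the ratio was -1.31. Sdsl in the same library was at 0.17 in cluster 3 and at -0.21 in cluster 0, its lowest cluster with an interval below 0. Neither difference between clusters was tested, because each library was made once.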

How the results depend on the processing

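The number of the 3 genes at least 2-fold lower (0, 3 and 3 in the Mll3-, Mll4- and Mll3/4-labelled libraries) was the same under each of the 11 alternatives. Of all genes 0.459%, 3.82% and 10.9% were that low in the main setting. The choice of the genes fixed the Mll4-labelled count, and nothing is read from its staying the same. Some ratios came near the cut-off of -1, with Myl10 reaching -0.98 with the Mll3 label and -1.08 with the Mll4 label. No ratio called in a direction reversed. The median log2 ratio of the 3 genes in the Mll3-labelled library, -0.23, moved to -0.33 with TMM scaling, -0.33 with median-of-ratios scaling, -0.32 without mitochondrial and ribosomal protein genes and -0.43 with groups weighted to control shares. In the Mll4-labelled library, -2.25 moved to -1.97 with the stricter cell filter, -2.50 with equal weight per cell, -1.86 with weighted groups, -2.07 without clusters of other cell types and -1.15 when granulocyte-monocyte-like clusters were left out as well, an alternative added later. In the Mll3/4-labelled library, -7.02 moved to -6.45 with the stricter filter, -8.46 with equal weight and -6.42 with weighted groups. The cause was not tested. Of 210 other comparisons of a single gene or share with an alternative, 89 moved by more than their counting interval. At resolution 0.3 no cluster was named HSC-like or lymphoid-primed-like, so no value was computed. No paired analysis was possible because each genotype had 1 library. In the Mll3/4-labelled library, with 116, 57 and 18 UMIs of the 3 genes, depth limits the ratios within groups.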
